A study of Rattus norvegicus with 25 samples.

Results

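The 6 genes described here make up the core of the route by which a cell builds fatty acids from sugar carbon. They were chosen by name, as 6 of the 32883 Ensembl rat gene IDs in the deposited count table: Srebf1 (ENSRNOG00000003463), Acly (ENSRNOG00000016924), Me1 (ENSRNOG00000009715), Acaca (ENSRNOG00000034013), Fasn (ENSRNOG00000045636) and Scd (ENSRNOG00000013552). The table carries IDs without symbols, and these 6 symbols come with the list that defined the set. All 6 passed the filter on low counts in both cohorts.

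In this pathway, citrate leaves the mitochondrion and ATP citrate lyase (Acly) splits it to give acetyl-CoA. Acetyl-CoA carboxylase (Acaca) turns that into malonyl-CoA, fatty acid synthase (Fasn) joins the units into palmitate, and stearoyl-CoA desaturase (Scd) places a double bond in the finished chain. Malic enzyme (Me1) supplies NADPH, the reducing agent that the synthase consumes, and Srebf1 encodes the transcription factor SREBP1, which switches on the enzymes when insulin is high. Liver and fat tissue are the best known sites of the pathway; in the small intestine, enterocytes use it beside the fat taken up from food.

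RNA came from the small intestine of rats given RYGB, the Roux-en-Y form of gastric bypass, in which food passes from a small stomach pouch directly into the mid-intestine, or sham surgery. A first cohort held 4 groups of 3 libraries: RYGB common limb (RYGB_CL), where food meets bile and pancreatic juice, RYGB alimentary limb (RYGB_AL), which receives food from the pouch, sham ileum (Sham_IL) and sham jejunum (Sham_JEJU); the labels used here give neither strain nor age for it. A second cohort came from Otsuka Long-Evans Tokushima Fatty (OLETF) rats, whose defect in the cholecystokinin A receptor gene leads to overeating, obesity and diabetes and is shared by all groups of the cohort. It held sections after RYGB that the submitters called glucotonic (Glucotonic_OLE, 4 numbers) or non-glucotonic (Nonglucotonic_OLE, the same 4 numbers), and distal intestine after sham surgery (Sham_OLE, 3 numbers). Number 13 had 2 libraries in each RYGB group, which were summed. In the first cohort, RYGB_CL and RYGB_AL carry the same library labels, and so do Sham_IL and Sham_JEJU.

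First-cohort libraries totalled 23.7 to 49.3 M counts (M, mega), and OLETF libraries 18.1 to 25.6 M counts. In OLETF libraries a pair of IDs took 44.6% to 65.9% of the counts, which left 8.48 to 12.8 M for all other genes, so a low gene such as Scd was counted less precisely there. Levels are CPM (counts per M counts) on TMM-scaled libraries, scaled within each cohort, and are therefore compared only within a gene and a cohort. A gene was called when its Benjamini-Hochberg adjusted p, over all IDs tested with edgeR's quasi-likelihood test, was under 0.05. Statements that groups do or do not overlap only describe the libraries. The share of all IDs without overlap was not counted in any comparison. Bulk tissue was sequenced, so fewer cells of a type and less RNA per cell cannot be told apart. No table at hand pairs the other IDs with symbols, so the remaining genes of the pathway and the markers of jejunum, ileum, fat and other tissues are not analysed here, and the tissue labels were not checked by marker name.

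Of the 6 genes, 1 was called in one comparison: Me1 was lower in Sham_IL than in Sham_JEJU, where 9.22% of 16146 IDs were called (6.47% lower), and 28.1% had an unadjusted p under 0.05. DESeq2 called the same gene, with 16.3% of IDs, and so did the fit with the replicate block, with 4.51% of IDs. The other 7 tests called 0 of the 6 with edgeR. In RYGB_AL against Sham_JEJU, where 7.66% of IDs were called, 2 of the 6 had an unadjusted p under 0.05, against 22.2% of all IDs, and DESeq2 called 2 of the 6 and 12.6% of IDs. In RYGB_CL against RYGB_AL, where 9.32% were called, 1 of the 6 had an unadjusted p under 0.05, against 29.2% of all IDs, and DESeq2 called 0 of the 6 and 17.2% of IDs. RYGB_CL against Sham_IL called 0% of IDs and had 1 of the 6 under an unadjusted 0.05, against 7.85% of all IDs, with 0 of the 6 and 0.576% of IDs called by DESeq2. The test of whether the surgery difference itself differed between the limbs called 0.607% of IDs, and 1 of the 6 had an unadjusted p under 0.05, against 12.5% of all IDs; DESeq2 called that 1 gene and 3.52% of IDs.

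In the OLETF cohort, 0.0345% of 14495 IDs were called in Glucotonic_OLE against Sham_OLE, and 1 of the 6 genes had an unadjusted p under 0.05, against 16.4% of all IDs. Nonglucotonic_OLE against Sham_OLE called 0% of IDs, and 2 of the 6 genes lay under an unadjusted 0.05, against 6.46% of all IDs. Glucotonic_OLE against Nonglucotonic_OLE called 0% of IDs as well, with 0 of the 6 under an unadjusted 0.05, against 2.68% of all IDs. DESeq2 called 0 of the 6 in each of these 3 comparisons, where it called 3.61%, 0.186% and 0.0207% of IDs in that order. Both sets of RYGB sections were compared with the same Sham_OLE samples.

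**Figure D1:**
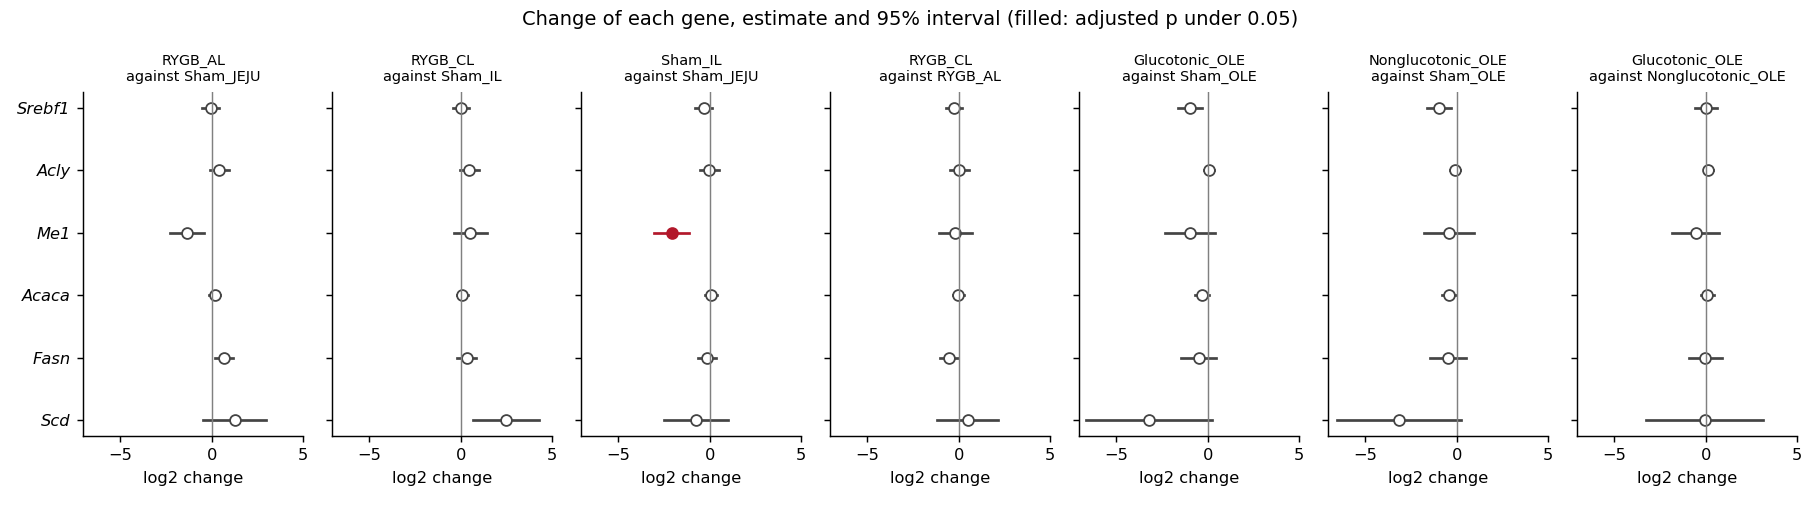
Change of each gene in 7 comparisons, as the log2 change (horizontal axis, first-named group minus second) with its 95% interval from the edgeR fit; genes run down the page, and a filled point marks an adjusted p under 0.05. The filled point is Me1 in Sham_IL against Sham_JEJU, at -2.07, and the widest intervals are those of Scd.

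Srebf1, the transcriptional regulator of the set, stood at similar levels in all first-cohort groups. Its libraries held 64.5, 59.8 and 90.5 CPM in RYGB_CL, 96.7, 63.4 and 95.1 CPM in RYGB_AL, 75.6, 72.1 and 64.0 CPM in Sham_IL, and 97.6, 95.3 and 72.7 CPM in Sham_JEJU. The ranges of all 4 groups overlap. The log2 change was -0.058 in RYGB_AL against Sham_JEJU, with a 95% interval of -0.51 to 0.40, and 0.020 in RYGB_CL against Sham_IL, with an interval of -0.44 to 0.48.

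In OLETF rats the Srebf1 level was 16.8, 21.3, 16.3 and 28.2 CPM in Glucotonic_OLE (numbers 13, 16, 18 and 19), 19.7, 16.7, 15.9 and 29.7 CPM in Nonglucotonic_OLE (the same numbers), and 58.3, 34.7 and 27.7 CPM in Sham_OLE (numbers 4, 22 and 23). Both sections of number 19 reach the sham range, and no other RYGB section does. Means were 20.6 ± 5.51 CPM in Glucotonic_OLE (SD, n = 4), 20.5 ± 6.36 CPM in Nonglucotonic_OLE (SD, n = 4) and 40.2 ± 16.01 CPM in Sham_OLE (SD, n = 3). The log2 change against sham was -0.97 for glucotonic sections (SE 0.30, edgeR adjusted p = 0.172) and -0.97 for non-glucotonic sections (SE 0.30, edgeR adjusted p = 0.682), so neither passed the test. Without Sham_OLE 4, which had the highest value, the log2 changes were -0.61 for glucotonic and -0.62 for non-glucotonic sections.

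RefSeq lists more than 1 start site for rat Srebf1, whose transcripts the counts on this ID do not separate. The promoter windows of both listed starts are shown here because Srebf1 is the regulator of the other genes. They run from 250 bases before to 50 after the start (build GRCr8, minus strand), at chr10:45529115-45529414 and chr10:45518961-45519260, and capitals mark matches to the CCAAT box or the GC box.
Srebf1, upstream start: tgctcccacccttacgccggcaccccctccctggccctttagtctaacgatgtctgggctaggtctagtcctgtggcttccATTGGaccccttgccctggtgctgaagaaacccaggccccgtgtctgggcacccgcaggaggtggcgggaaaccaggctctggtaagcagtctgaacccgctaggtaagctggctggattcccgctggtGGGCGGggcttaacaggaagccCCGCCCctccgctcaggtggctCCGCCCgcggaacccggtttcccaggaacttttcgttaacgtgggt
Srebf1, downstream start: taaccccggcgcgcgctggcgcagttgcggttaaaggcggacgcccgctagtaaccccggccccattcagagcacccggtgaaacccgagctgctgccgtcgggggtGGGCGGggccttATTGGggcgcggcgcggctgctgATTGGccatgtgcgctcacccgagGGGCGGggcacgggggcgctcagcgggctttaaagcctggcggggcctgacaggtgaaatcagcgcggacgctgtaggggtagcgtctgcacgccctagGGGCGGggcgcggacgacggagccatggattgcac
Searched on both strands, the upstream window holds 1 CCAAT box (CCAAT) and 3 GC boxes (GGGCGG), and the downstream window 2 CCAAT boxes and 3 GC boxes. Of all 33469 rat promoter windows of this length, 37.5% hold a CCAAT box and 33.1% a GC box. The sterol regulatory element (TCACNCCAC, in 1.12% of windows), the E-box CACGTG (6.42%) and the LXR response element (0.00598%) have no exact match in either window. The LXR string occurs in only 2 of all 33469 windows, so its lack was likely in any window. Sites that depart from these letters were not searched, here or in the other promoters. A missing match therefore does not show that a window lacks a site for the factor. The matches are descriptions of the letters, and none of them overlaps another.

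Acly, which makes the acetyl-CoA, varied little in the sham groups and more widely after surgery. Libraries held 161, 231 and 189 CPM in RYGB_AL, against 159, 129 and 147 CPM in Sham_JEJU. These groups do not overlap, by a margin of 161 to 159 CPM, and the log2 change of 0.42 did not pass (SE 0.23, edgeR adjusted p = 0.327). RYGB_CL held 176, 274 and 145 CPM, against 123, 138 and 167 CPM in Sham_IL, and these overlap (log2 change 0.47, SE 0.23, edgeR adjusted p = 0.656). Library 2-3 was the highest of its group in both limbs.

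In OLETF sections Acly was the steadiest of the 6 genes. It averaged 63.1 ± 5.89 CPM in Glucotonic_OLE (SD, n = 4), 57.4 ± 6.18 CPM in Nonglucotonic_OLE (SD, n = 4) and 60.5 ± 2.93 CPM in Sham_OLE (SD, n = 3). Its SD of log2 CPM within groups was 0.13, at the 6.02th percentile of all IDs tested, against a median of 0.31. The log2 change against sham was 0.059 in glucotonic sections, with a 95% interval of -0.21 to 0.33, and -0.078 in non-glucotonic sections, with an interval of -0.35 to 0.19.

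Me1, the NADPH-producing malic enzyme, had the only called difference. Its libraries held 106, 93.2 and 54.3 CPM in Sham_IL, against 390.2, 273 and 404 CPM in Sham_JEJU. Every jejunal library lay above every ileal one by more than the spread within either group. Means were 84.5 ± 26.9 CPM in Sham_IL and 356 ± 71.9 CPM in Sham_JEJU (SD, n = 3 each), a log2 change of -2.07 or 4.21-fold lower in ileum (SE 0.43, edgeR adjusted p = 0.0169). The adjusted p ran from 3.44e-05 to 0.0797 over 11 alternatives, and the call was lost without Sham_IL 15-30 (edgeR adjusted p = 0.0797) and without Sham_IL 8-15 (edgeR adjusted p = 0.0548).

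The alimentary limb is jejunum by origin. Its RYGB_AL libraries held 201, 98.9 and 117 CPM of Me1, all below the lowest Sham_JEJU library at 273 CPM. The log2 change was -1.36 (SE 0.42, 95% interval -2.28 to -0.44), which missed the threshold in edgeR (adjusted p = 0.075) and passed in DESeq2 (adjusted p = 0.0124) and in edgeR with only these groups in the fit (adjusted p = 0.0348, with 6.89% of IDs called), in a range of 0.0124 to 0.231 over 10 alternatives. In RYGB_CL the libraries held 159.5, 50.02 and 154 CPM, against 106, 93.2 and 54.3 CPM in Sham_IL, so these groups overlap (log2 change 0.52, SE 0.42, edgeR adjusted p = 0.753). The surgery difference in the alimentary limb minus that in the common limb was -1.88 on the log2 scale (SE 0.59, 95% interval -3.17 to -0.59, edgeR adjusted p = 0.194). It passed in DESeq2 (adjusted p = 0.0403) and without RYGB_CL 2-3 in edgeR (adjusted p = 0.0484, in a fit that called 0.782% of IDs), in a range of 0.0403 to 0.408 over 15 alternatives. Between the limbs after surgery, RYGB_CL and RYGB_AL averaged 121 ± 61.8 and 139 ± 54.3 CPM of Me1 (SD, n = 3 each), with a log2 change of -0.20 and a 95% interval of -1.10 to 0.71. Whether this difference differs from the sham one is the same test as above.

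In OLETF rats Me1 was 26.4, 55.9, 37.4 and 26.5 CPM in Glucotonic_OLE (numbers 13, 16, 18 and 19), 33.9, 98.4, 48.5 and 30.3 CPM in Nonglucotonic_OLE (the same numbers), and 156, 24.8 and 30.5 CPM in Sham_OLE (numbers 4, 22 and 23). One sham sample, number 4, lies above all other samples of the cohort. A segment index was computed from those IDs called between Sham_IL and Sham_JEJU that were also tested in the OLETF cohort, without the 6 genes (388 higher and 1014 lower in ileum), scaled to 0 at the Sham_JEJU mean and 1 at the Sham_IL mean. On it the RYGB sections lay between 0.519 and 0.848, Sham_OLE 4 at 0.156, and Sham_OLE 22 and 23 at 0.762 and 0.976. Both ends of the index come from first-cohort libraries, which were scaled apart. Only the order within the OLETF cohort is therefore read. By these IDs, the sham sample with the most Me1 is also the OLETF sample nearest to jejunum. The part of segment in its Me1 level was not tested. The log2 change of Me1 in Glucotonic_OLE against Sham_OLE was -0.95 with all samples (SE 0.62, edgeR adjusted p = 0.453) and 0.39 without Sham_OLE 4 (edgeR adjusted p = 0.671), and adjusted p ran from 0.33 to 0.677 over 17 alternatives.

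Within each number, the glucotonic section held less Me1 than the non-glucotonic section, in 4 of 4 numbers. With the number as a replicate block, the log2 change was -0.45 (SE 0.10, unadjusted p = 0.00182, edgeR adjusted p = 0.139), and without it -0.53 (SE 0.58, edgeR adjusted p = 1). The blocked fit called 0.179% of IDs, none of them among the 6 genes, and 1800 of its 14004 IDs had an unadjusted p under 0.05. How many of all IDs went one way in 4 of 4 numbers was not counted.

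**Figure D2:**
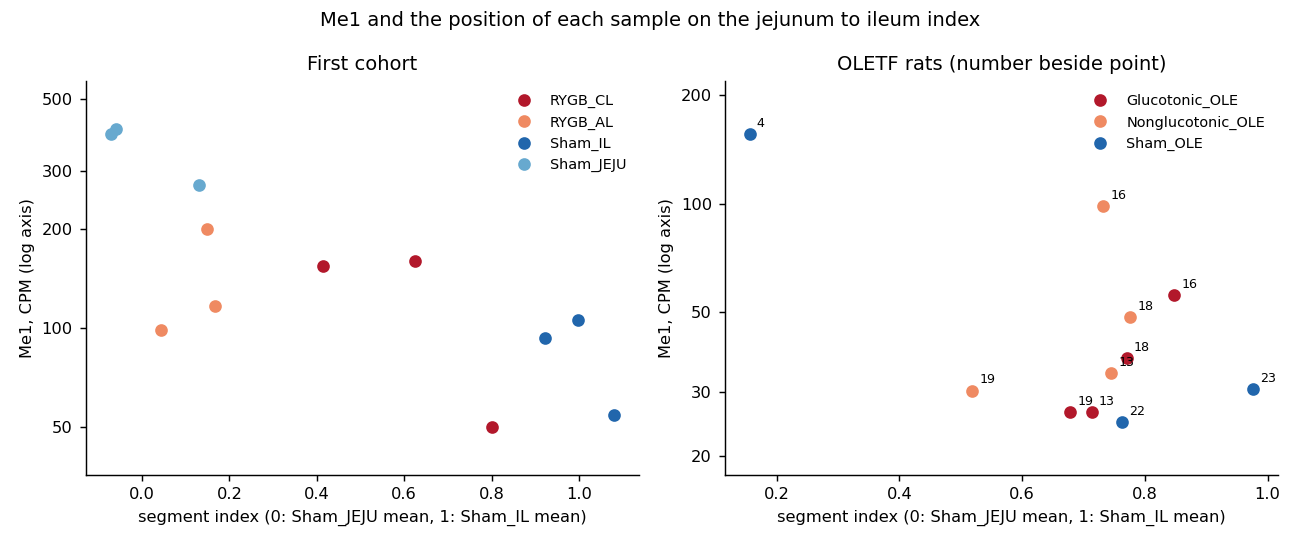
Me1 level in CPM (vertical, log axis) against the segment index (horizontal, 0 at the Sham_JEJU mean and 1 at the Sham_IL mean) for each library of the first cohort (left) and each OLETF sample with its number (right). RYGB_AL libraries lie near 0 on the index, between 0.0425 and 0.166, with 98.9 to 201 CPM, below the Sham_JEJU libraries at 273 to 404 CPM; Sham_OLE 4 lies apart from the other OLETF samples at 0.156 and 156 CPM.

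The Me1 promoter is shown because Me1 is the gene with the called difference. The RefSeq window lies at chr8:96540195-96540494 (build GRCr8, minus strand), with capitals for matches to the GC box or to the antioxidant response element.
Me1: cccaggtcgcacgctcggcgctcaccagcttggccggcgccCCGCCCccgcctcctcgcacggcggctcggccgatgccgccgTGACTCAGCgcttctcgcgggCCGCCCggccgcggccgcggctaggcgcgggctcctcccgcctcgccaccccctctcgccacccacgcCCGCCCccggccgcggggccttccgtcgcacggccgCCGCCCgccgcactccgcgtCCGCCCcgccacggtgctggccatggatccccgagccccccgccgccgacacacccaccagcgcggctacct
It holds 5 GC boxes and 1 antioxidant response element (TGACNNNGC, in 12.1% of all windows), the sequence through which the factor NRF2 acts, whose first base lies 167 bases before the start. It has no exact match to the letters used for the CCAAT box, the sterol regulatory element, the E-box or the LXR response element.

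Acaca, the carboxylase that commits acetyl-CoA to fatty acid synthesis, was nearly constant in the first cohort. Its libraries held 75.9 to 82.0 CPM in RYGB_CL, 76.0 to 80.7 CPM in RYGB_AL, 68.7 to 83.6 CPM in Sham_IL and 62.3 to 80.7 CPM in Sham_JEJU. The groups overlap throughout, and the SD of log2 CPM within groups, 0.13, was at the 4.23th percentile of all IDs tested. The 95% interval of the log2 change was -0.14 to 0.47 in RYGB_AL against Sham_JEJU and -0.23 to 0.39 in RYGB_CL against Sham_IL. In OLETF rats Acaca was 26.5, 34.6, 27.0 and 38.0 CPM in Glucotonic_OLE and 27.7, 25.1, 28.2 and 36.8 CPM in Nonglucotonic_OLE (numbers 13, 16, 18 and 19 in each), against 33.9, 42.6 and 42.5 CPM in Sham_OLE (numbers 4, 22 and 23). Number 19 was again the highest of each RYGB group. The log2 change against sham was -0.33 in glucotonic sections (SE 0.18, edgeR adjusted p = 0.363) and -0.43 in non-glucotonic sections (SE 0.18, edgeR adjusted p = 0.743).

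Fasn, the synthase itself, had its highest level of the first cohort in the alimentary limb. RYGB_AL libraries held 325, 326 and 295 CPM, against 263, 184 and 142 CPM in Sham_JEJU. The groups do not overlap, though the share of all IDs that separate this way was not counted. The 3 RYGB_AL libraries lay closer together than the sham ones. Means were 315 ± 17.5 CPM in RYGB_AL and 196 ± 61.6 CPM in Sham_JEJU (SD, n = 3 each). The log2 change was 0.68, or 1.61-fold (SE 0.23, 95% interval 0.18 to 1.18). It missed the threshold in edgeR (adjusted p = 0.0955), and passed in DESeq2 (adjusted p = 0.0467) and in edgeR without Sham_JEJU 8-15 (adjusted p = 0.034, in a fit that called 4.86% of IDs); over 10 alternatives the adjusted p ran from 0.034 to 0.25.

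The common limb held less Fasn than the alimentary limb in every library. RYGB_CL had 190.0, 233 and 239 CPM, and the log2 change against RYGB_AL was -0.52 (SE 0.23, edgeR adjusted p = 0.158). Against Sham_IL, with 141, 173 and 218 CPM, the RYGB_CL libraries overlap (log2 change 0.32, SE 0.23, edgeR adjusted p = 0.732). The surgery differences of Fasn in the alimentary and common limbs differed by 0.37 on the log2 scale, with a 95% interval of -0.34 to 1.07. Between the sham segments the log2 change was -0.15 (SE 0.23), so the order of the groups was RYGB_AL, RYGB_CL, Sham_JEJU and Sham_IL, of which the last 3 overlap one another.

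In OLETF rats the Fasn means after surgery lay below the sham mean. Fasn was 35.5, 62.0, 40.7 and 105 CPM in Glucotonic_OLE and 50.5, 34.2, 47.1 and 115 CPM in Nonglucotonic_OLE (numbers 13, 16, 18 and 19 in each), against 70.5, 101 and 85.1 CPM in Sham_OLE (numbers 4, 22 and 23). The sections of number 19 were above every sham sample, and all other RYGB sections were below every sham sample. With all samples, the log2 change was -0.49 in glucotonic sections (SE 0.44, edgeR adjusted p = 0.594) and -0.47 in non-glucotonic sections (SE 0.44, edgeR adjusted p = 0.849). The difference between the surgery effects of the cohorts was not tested.

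**Figure D3:**
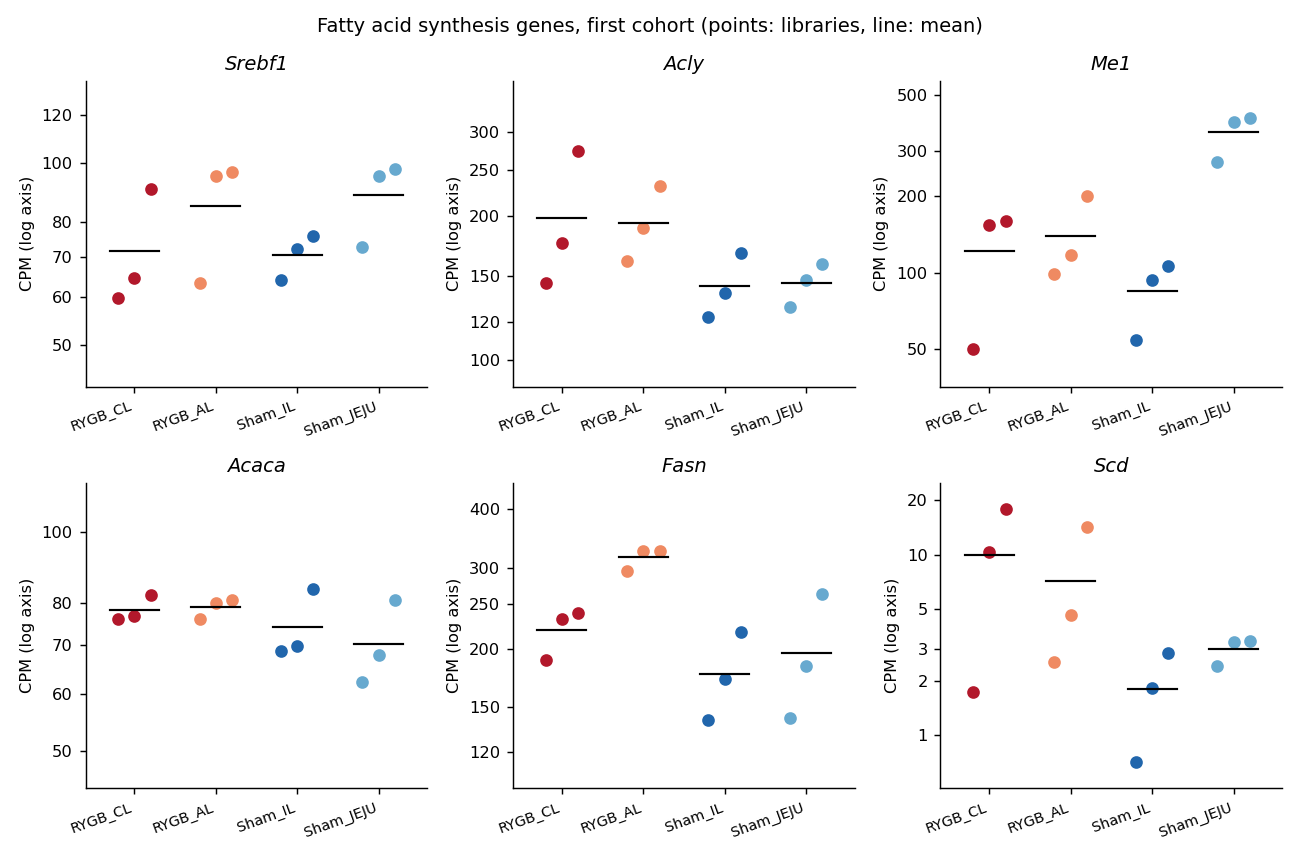
Level of each gene in the first cohort, in CPM (vertical, log axis), by group; points are libraries and lines are means of 3. Me1 is highest in Sham_JEJU at 273 to 404 CPM, Fasn in RYGB_AL at 295 to 326 CPM, and Scd spreads from 1.72 to 17.9 CPM within RYGB_CL.

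For Srebf1, Acaca and Fasn, the OLETF sections were lower than sham by the fitted log2 change with and without number 19. What changed without it was the overlap of Srebf1 and Fasn with sham, and their calls in the glucotonic comparison. Number 19 stood apart in earlier results of these data across many IDs, and leaving it out was chosen with those results known. Its sections held 28.2 to 29.7 CPM of Srebf1 and 105 to 115 CPM of Fasn. The remaining 6 RYGB sections came from numbers 13, 16 and 18, each in both kinds of section, so they are not 6 independent samples. They held 15.9 to 21.3 CPM of Srebf1, against 27.7 to 58.3 CPM in the 3 sham samples. For Fasn they held 34.2 to 62.0 CPM, against 70.5 to 101 CPM. With number 19 left out there was thus no overlap in either gene, and the share of all IDs without overlap was not counted. The log2 change in Glucotonic_OLE against Sham_OLE then was -1.15 for Srebf1 (SE 0.24, edgeR adjusted p = 0.0191), -0.89 for Fasn (SE 0.24, edgeR adjusted p = 0.0358) and -0.44 for Acaca (SE 0.15, edgeR adjusted p = 0.0761). So 2 of the 6 genes passed, both lower, in a fit that called 13% of IDs. In Nonglucotonic_OLE against Sham_OLE, where that fit called 1.1% of IDs, the log2 changes were -1.20 for Srebf1 (SE 0.24, edgeR adjusted p = 0.0514), -0.96 for Fasn (SE 0.24, edgeR adjusted p = 0.078) and -0.55 for Acaca (SE 0.15, edgeR adjusted p = 0.0928), and 0 of the 6 passed. With Sham_OLE 4 left out as well, Srebf1, Acaca and Fasn passed in both comparisons, 3 of the 6 in each, in fits that called 27.7% of IDs for glucotonic and 14.3% for non-glucotonic sections.

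All Sham_OLE libraries were sequenced in lane 7, and the RYGB libraries in lanes 4 to 7, with 1 lane 7 library in each RYGB group, from number 13. With number 19 left out, lane 7 as a covariate and the libraries of number 13 kept apart, the glucotonic log2 changes were -1.16 for Srebf1 (SE 0.29, edgeR adjusted p = 0.0957) and -0.96 for Fasn (SE 0.32, edgeR adjusted p = 0.154), of similar size but not called. That fit counts the libraries of number 13 within a group as independent samples, so its SEs may be too small. Its lane term rests on number 13 alone, whose non-glucotonic libraries in lanes 4 and 7 also carry different labels, 33 and 34. Over 17 alternatives the edgeR and DESeq2 adjusted p in Glucotonic_OLE against Sham_OLE ran from 0.00598 to 0.517 for Srebf1 and from 0.0177 to 0.834 for Fasn. Within lane 7, Fasn was 41.0 CPM in the glucotonic and 51.3 CPM in the non-glucotonic library of number 13, below the sham libraries at 69.9 to 102 CPM on the same scaling. Srebf1 in those libraries was 16.9 and 19.95 CPM, against 27.5 to 57.8 CPM in sham.

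**Figure D4:**
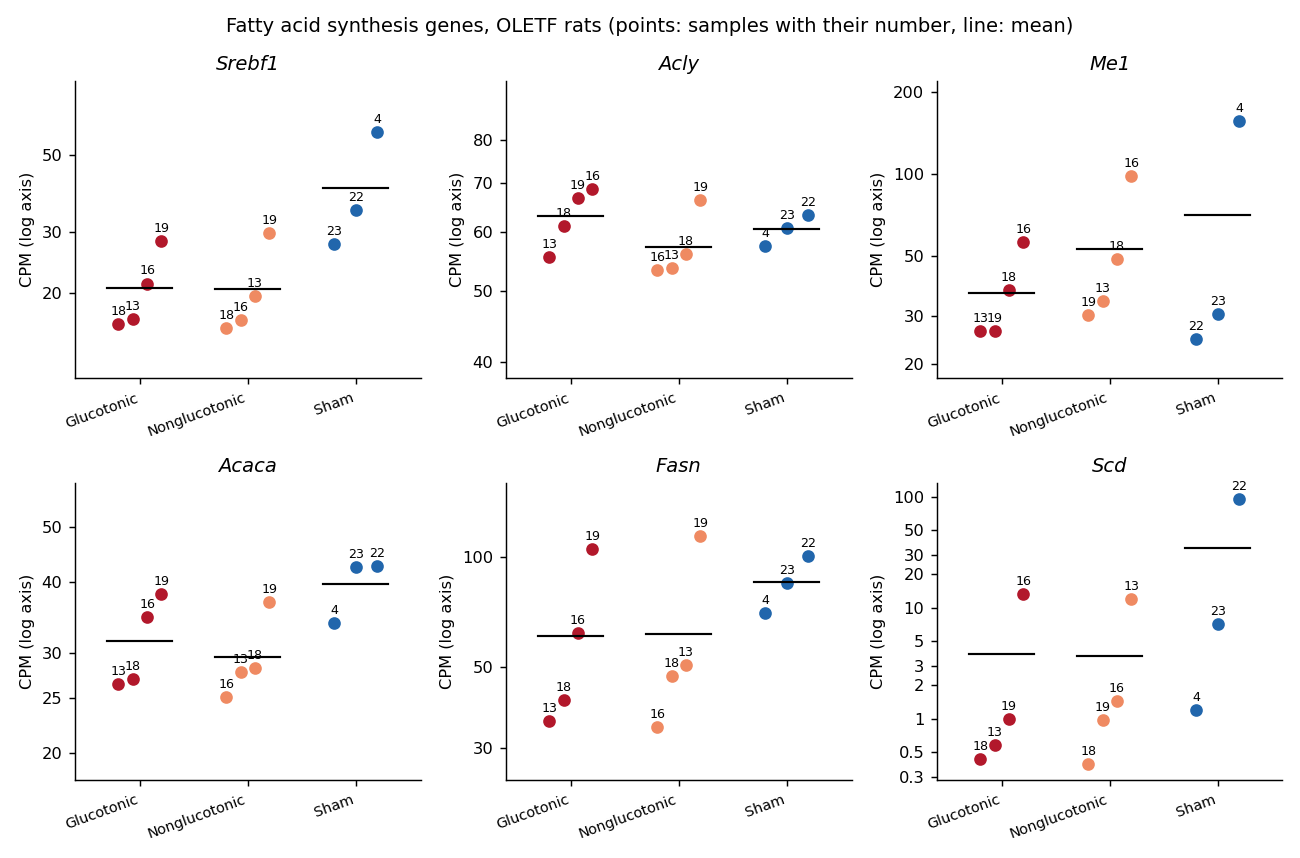
Level of each gene in the OLETF samples, in CPM (vertical, log axis), by group, with the number of each sample beside its point and a line at the group mean. Both sections of number 19 are the highest RYGB sections for Srebf1, Acaca and Fasn, and Scd runs from 0.390 to 95.6 CPM.

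**Figure D5:**
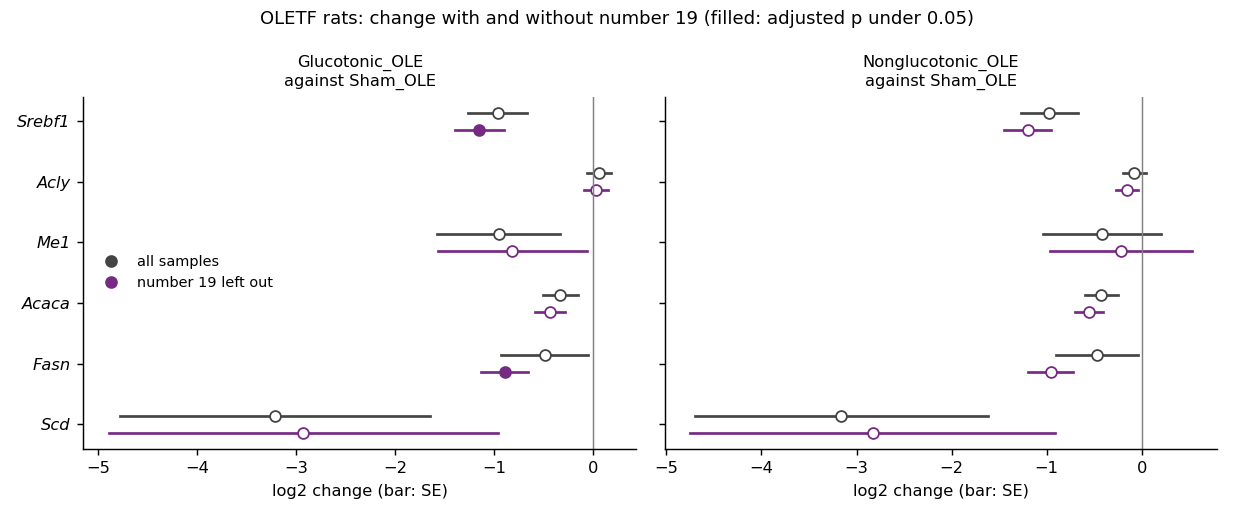
The log2 change of each gene (horizontal, RYGB minus sham, bar: SE) in glucotonic (left) and non-glucotonic (right) sections, with all samples (grey) and with number 19 left out (purple); a filled point marks an adjusted p under 0.05. Without number 19, Srebf1 at -1.15 and Fasn at -0.89 are filled in the glucotonic panel, and no point is filled in the non-glucotonic one.

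For the same 3 genes, no difference between glucotonic and non-glucotonic sections passed the test. With the number as a replicate block, the log2 change was 0.0088 for Srebf1 (SE 0.10), 0.087 for Acaca (SE 0.10) and -0.011 for Fasn (SE 0.22). The matching edgeR adjusted p were 0.983, 0.77 and 0.989.

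Scd, the desaturase, was low in most libraries and by far the most variable of the 6. In the first cohort it was 17.9, 10.3 and 1.72 CPM in RYGB_CL, 4.62, 14.2 and 2.53 CPM in RYGB_AL, 1.82, 0.706 and 2.84 CPM in Sham_IL, and 3.26, 3.29 and 2.42 CPM in Sham_JEJU. In each limb 2 libraries lay above every sham library and the third, 15-29, did not. The log2 change was 2.48 in RYGB_CL against Sham_IL (SE 0.82, 95% interval 0.67 to 4.29, edgeR adjusted p = 0.498) and 1.26 in RYGB_AL against Sham_JEJU (SE 0.79, edgeR adjusted p = 0.395). Leaving out single libraries moved these values: over 10 alternatives each, they ran from 1.75 (without RYGB_CL 1-1) to 2.98 (without Sham_IL 15-30) in the common limb, and from 0.23 (without RYGB_AL 2-3) to 1.66 (without RYGB_AL 15-29) in the alimentary limb. Within groups the SD of log2 CPM was 1.18, at the 97.3th percentile of all IDs tested.

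In OLETF rats that SD was 2.39, at the 99.9th percentile. Scd was 0.572, 13.3, 0.436 and 0.992 CPM in Glucotonic_OLE and 11.997, 1.44, 0.390 and 0.977 CPM in Nonglucotonic_OLE (numbers 13, 16, 18 and 19 in each), against 1.21, 95.6 and 7.17 CPM in Sham_OLE (numbers 4, 22 and 23). High values were single samples, and not the same number in both kinds of section. The log2 change against sham was -3.21 in glucotonic sections (SE 1.56, 95% interval -6.65 to 0.23, edgeR adjusted p = 0.329) and -3.16 in non-glucotonic sections (SE 1.54, edgeR adjusted p = 0.763). Without Sham_OLE 22 these were -0.14 and -0.13, and over all alternatives they ran from -6.72 to -0.14 in glucotonic and from -5.87 to -0.13 in non-glucotonic sections. Leaving out Glucotonic_OLE 16 gave -5.74 in glucotonic sections, and leaving out Nonglucotonic_OLE 13 gave -5.23 in non-glucotonic ones. Libraries of 1 number differed as well: the non-glucotonic libraries of number 13, labelled 33 and 34, held 531 and 11 counts of Scd (26.5 and 0.455 CPM). The same libraries held 26.1 and 30.2 CPM of Acaca, and 51.8 and 51.3 CPM of Fasn.

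Other IDs also differed between those 2 libraries. Of 14562 IDs, 50 were at least 4-fold higher in library 33 and 14 in library 34, on CPM plus 1, and 5 IDs differed more than Scd. Of the 49 other IDs, 7 had their highest value among the 11 remaining OLETF libraries in Sham_OLE 22, where Scd was highest, against 9.79% of all IDs, and 11 in Glucotonic_OLE 16, where Scd was next highest among these libraries, against 6.41% of all IDs. The 49 IDs were picked by their values in these same data, so the counts describe them and test nothing. Scd is also a major transcript of fat tissue, and without symbols for the other IDs the fat markers were not analysed here. The cause of the spread of Scd was not tested.

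The Scd promoter is shown beside this spread. The RefSeq window lies at chr1:253231682-253231981 (build GRCr8, minus strand), with capitals for its only match to the motifs searched, 1 antioxidant response element on the opposite strand.
Scd: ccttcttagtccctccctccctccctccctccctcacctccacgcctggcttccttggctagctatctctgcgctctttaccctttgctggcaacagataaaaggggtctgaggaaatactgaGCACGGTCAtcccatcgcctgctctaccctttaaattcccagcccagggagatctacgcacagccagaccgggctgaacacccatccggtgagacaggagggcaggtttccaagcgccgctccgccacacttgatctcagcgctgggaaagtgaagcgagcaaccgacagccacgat
RefSeq promoter windows matched 4 of the 6 genes; the Acly window, not printed, holds 1 CCAAT box and 3 GC boxes.

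The IDs most like the mean of the 6 genes over the 12 first-cohort libraries were ENSRNOG00000048371 (r = 0.856, log2 CPM) and ENSRNOG00000006486 (r = 0.851). Over the 11 OLETF samples they were ENSRNOG00000011134 (r = 0.854) and ENSRNOG00000059615 (r = 0.852). These are descriptions over samples that share groups and scaling, among 10936 and 9305 IDs with a mean of at least 5 CPM. For single genes, chosen after the values were seen, 133 IDs reached r = 0.9 with Fasn in the OLETF cohort, against 2 in the first cohort. For Me1 the counts were 6 in the OLETF cohort and 49 in the first cohort. In the same order they were 18 and 38 for Srebf1, 1 and 7 for Acly, 25 and 0 for Acaca, and 2 and 0 for Scd. Both sections of number 19 held the highest Fasn values of the OLETF cohort, at 105 and 115 CPM. The part of number 19 in these correlations was not tested.

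As a group, the 6 genes are described by their median. The median log2 change of the 6 was 0.29 in RYGB_AL against Sham_JEJU, with 4 of 6 above 0, beside -0.0086 over all IDs, of which 49.2% were above 0. In RYGB_CL against Sham_IL it was 0.39, with 6 of 6 above 0, beside 0.046 over all IDs, of which 55.4% were above 0. In Glucotonic_OLE against Sham_OLE it was -0.72, with 1 of 6 above 0, beside -0.021 over all IDs, of which 47.7% were above 0. In Nonglucotonic_OLE against Sham_OLE it was -0.45, with 0 of 6 above 0, beside -0.021 over all IDs, of which 46.8% were above 0. Without Sham_OLE 4, the Me1 member of both counts was above 0, at 0.39 in glucotonic and 0.92 in non-glucotonic sections. These counts are of estimates, of which none passed the test in these 4 comparisons.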

How the data were processed

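Per the labels' protocols, RNeasy total RNA went into TruSeq stranded libraries after removal of ribosomal RNA. The submitters' processing notes name FastQC, STAR and rat build rn6. How reads were counted (tool, annotation, strand, multi-mapping reads) is not given in the sources used here. Whole-number counts per Ensembl gene ID, without normalization judging from the values, were deposited by the authors for 25 libraries. Reads that a gene shares with a near copy (other Scd genes, Fasn or Acaca relatives) or with an overlapping antisense gene cannot be separated without that rule. 0 of the 32883 IDs are paired with a symbol in the reference table (GRCr8), so the lists of pathway genes and tissue markers were not applied.

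The cohorts were fitted separately in edgeR 4.0.16 (R 4.3.3), after filterByExpr with a minimum count of 10 and a minimum total of 15, with TMM, a robust quasi-likelihood fit over all groups of the cohort and Benjamini-Hochberg adjustment over all IDs tested. SEs are the log2 change over the root of F. CPM are scaled per cohort; log2 CPM use a prior count of 2. The lowest chi-square per degree of freedom between libraries of a group was 16.3 (IDs with at least 20 counts), so none was a library deposited again within its group. Libraries of different groups were not compared in this way. The labels do not state that samples are separate animals, and p-values therefore reflect spread among these samples, which may be technical. A change that missed the threshold is not thereby shown to be absent.

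Glucotonic and non-glucotonic sections carry the same OLETF numbers in their labels, and these were taken to pair them. In a check on the data, deviations from the group means correlated within a number at r = 0.467 (13), 0.43 (16), 0.341 (18) and 0.811 (19), each over 0.1. Across different numbers the largest r reached 0.412 (13), 0.221 (16), 0.444 (18) and -0.275 (19), so number 18 correlated more with another number than with its own. For 13, 16 and 18 the largest r across numbers is also over 0.1, so that cut does not by itself tell pairs from other sections. That a number is an animal is not stated. RYGB_CL and RYGB_AL share their labels, as do Sham_IL and Sham_JEJU, but the first-cohort numbers did not pass this check (lowest r = -0.0481). With groups of 3 the check cannot show that samples with the same label are unpaired. The main tests between those groups may therefore leave a pairing out. All 6 genes are described in every comparison, and the genes and lists were chosen with earlier results of these data known. Alternatives were DESeq2 1.42.0, its size factors in edgeR, no low-count filter, only the groups compared, each sample left out, number 13 libraries apart, lane 7 as a covariate or left out, number 19 left out, the most abundant pair of IDs out of the library sizes and the replicate block. Added after the data were seen were 3 more: library 13-33 left out, number 19 left out with the lane covariate, and number 19 and Sham_OLE 4 left out together.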

Additional observations from a re-analysis of the deposited data

Results flagged for a closer look

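In 2 of 12 sets of 4 values examined (6 genes in each kind of OLETF section), 1 sample lay far from the others, and both were Scd. The measure was Dixon's ratio on CPM, the gap to the nearest value over the range of the set. Its chance rate of about 1 in 20 holds only for normally distributed values, which was not shown for the widely spread Scd. The ratio was not taken on log2 CPM, so the flags describe the CPM scale only. Glucotonic_OLE 16 held 13.3 CPM of Scd, where the next highest glucotonic section held 0.992 CPM. Nonglucotonic_OLE 13 held 11.997 CPM, where the next highest non-glucotonic section held 1.44 CPM. The second value is the sum of libraries 33 and 34, which held 26.5 and 0.455 CPM. Both kinds of section carry the same numbers, so these sets are not independent.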

How the results depend on the processing

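The number of the 6 genes called changed under these settings. With DESeq2 it was 2 in RYGB_AL against Sham_JEJU (Fasn and Me1) and 1 in the test between limbs (Me1), and with only the groups compared in the fit it was 1 in RYGB_AL against Sham_JEJU (Me1). With number 19 left out it was 2 in Glucotonic_OLE against Sham_OLE, and with number 19 and Sham_OLE 4 left out together it was 3 there and 3 in Nonglucotonic_OLE against Sham_OLE. Leaving out 1 sample at a time gave 0 to 1 called in RYGB_AL against Sham_JEJU, 0 to 1 in Sham_IL against Sham_JEJU and 0 to 1 in the test between limbs. The replicate block changed none of these counts. With it Me1 in Sham_IL against Sham_JEJU stood at -2.10. Whether the shared first-cohort labels pair the samples was not settled by the check on the data.

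Signs turned only for uncalled changes, and the cause was not tested. On the log2 scale, Acaca in RYGB_CL against RYGB_AL was 0.0355 with only the groups compared and 0.0359 with the replicate block. Acly in Glucotonic_OLE against Sham_OLE was -0.0387 with the lane covariate, -0.0134 without number 19 and Sham_OLE 4, and -0.0531 without number 19 and with the lane covariate; Me1 without number 19 and Sham_OLE 4 was 0.51 there and 1.11 in Nonglucotonic_OLE against Sham_OLE. In Glucotonic_OLE against Nonglucotonic_OLE, Fasn was 0.064 without number 19, and Scd was 0.0608 with DESeq2 and 2.21 without library 13-33. Srebf1 there was -0.0417 with the lane covariate, -0.0035 without lane 7, -0.037 with the number 13 libraries apart and -0.0016 with the most abundant pair of IDs out of the library sizes.

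Leaving out 1 sample at a time turned the sign within these ranges. In Glucotonic_OLE against Nonglucotonic_OLE they were -0.0047 to 0.2205 for Acaca, -0.4205 to 0.4675 for Fasn, -2.56 to 2.0041 for Scd and -0.1772 to 0.241 for Srebf1. Me1 ran from -1.33 to 0.39 in Glucotonic_OLE and from -0.88 to 0.92 in Nonglucotonic_OLE, each against Sham_OLE. In RYGB_CL against RYGB_AL they were -0.0502 to 0.0075 for Acaca, -0.273 to 0.2114 for Acly, -0.4441 to 0.1765 for Me1 and -0.2447 to 1.48 for Scd. In Sham_IL against Sham_JEJU they were -0.0224 to 0.1864 for Acaca, -0.1494 to 0.0748 for Acly and -0.3468 to 0.12 for Fasn. In the test between limbs they were -0.0094 to 0.1996 for Acaca, -0.2337 to 0.2533 for Acly and -0.2112 to 0.1262 for Srebf1, which ran from -0.1985 to 0.089 in RYGB_AL against Sham_JEJU and from -0.1836 to 0.1353 in RYGB_CL against Sham_IL. Lane 7 could not be left out of comparisons with Sham_OLE, whose samples are all in it.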
